A study of Mus musculus with 6 samples.

Results

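The 10 phosphoinositide-specific phospholipase C genes Plch2, Plcb1, Plcb2, Plcb3, Plcb4, Plcd1, Plcd3, Plce1, Plcg1 and Plcg2 were followed in RNA-seq of white fat from WT mice and from mice without Prmt5 in adipocytes. They were found by symbol among 16619 genes with values. The family was selected on measured values, chosen by the limma result in which Plch2 had the smallest adjusted p of all genes in the same WT against Prmt5AKO contrast. Its values in that contrast, and those of its relatives, are therefore a description and support nothing on their own. The nearest gene outside the family, Abhd11os, had the same adjusted p, and Svop and Disp2 came next at 0.106 (limma).

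Both groups came from 6-month-old females and carried the Prmt5 flox/flox allele on both chromosomes. WT mice had no Cre, and Prmt5AKO mice carried Adipoq-Cre, which deletes in adipocytes, so the other cells of the depot kept the gene. The labels name the depot epididymal white adipose tissue (eWAT), and which diet these mice ate was not given in the sources used here. Each group had 3 libraries of polyA-selected RNA. The sources do not say that every library came from a separate mouse, so the p-values measure the spread between libraries.

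Phospholipases C cut the membrane lipid PIP2 into IP3, which opens calcium channels of the endoplasmic reticulum, and diacylglycerol, which stays in the membrane and recruits protein kinase C. The classes differ in what turns them on. The beta enzymes respond to Gq-type G proteins and to G protein beta-gamma subunits, the gamma enzymes to receptor and immune tyrosine kinases, the epsilon enzyme to Ras-family GTPases, and the delta and eta enzymes to calcium. In fat, hormones that act through Gq receptors and growth factors that act through tyrosine kinases use these enzymes, whereas the eta enzymes are best known from mouse neurons.

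Reads recovered from the gene values numbered 18731215 to 27445096 per library. These are reads assigned to the genes with values, not all reads sequenced. Prmt5 itself measured 36.6, 59.7 and 39.7 CPM (reads scaled to the effective size of the library) in WT replicates 1, 2 and 3 and 14.6, 22.0 and 28.5 CPM in Prmt5AKO, with no overlap between the groups. All 10 adipocyte marker genes had values, among them Adipoq at 3194 to 5420 CPM. The first principal component, with 64.5% of the variance, did not follow genotype: it placed WT replicates 1 and 3 with Prmt5AKO replicate 1, and WT replicate 2 with Prmt5AKO replicates 2 and 3. Several members moved along that axis, so values are given for every library. Of the cell type markers, 6 of 12 T and NK cell genes and 4 of 10 smooth muscle and pericyte genes were higher in every Prmt5AKO library than in any WT library, and 4 of 10 fibroblast and progenitor genes were lower in this way. Over all genes fitted, 8.16% were higher and 6.28% lower in every Prmt5AKO library. Of the adipocyte markers 2 of 10, Cfd and Pparg, were lower in every Prmt5AKO library, and of 12 macrophage markers 2 were higher and 1 was lower. In bulk tissue, fewer cells of a type and less RNA per cell cannot be told apart.

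Promoter windows are shown first for Plch2, on which the contrast turns, and for Plcg1, the member with the highest level. Each window runs from 250 bases before to 50 bases after a RefSeq transcription start (GRCm38.p6) and is written along the gene's own strand. Capitals mark the motifs that were searched on both strands, the GC box (GGGCGG), the CCAAT box (CCAAT), the TATA box (TATAAA), the E-box (CACGTG), the CRE (TGACGTCA) and the AP-1 site (TGACTCA). The first 2 are the starts of Plch2 at chr4:155019379-155019678 and chr4:155010976-155011275 on the minus strand, and the last is Plcg1 at chr2:160731060-160731359 on the plus strand.
Plch2 upstream start: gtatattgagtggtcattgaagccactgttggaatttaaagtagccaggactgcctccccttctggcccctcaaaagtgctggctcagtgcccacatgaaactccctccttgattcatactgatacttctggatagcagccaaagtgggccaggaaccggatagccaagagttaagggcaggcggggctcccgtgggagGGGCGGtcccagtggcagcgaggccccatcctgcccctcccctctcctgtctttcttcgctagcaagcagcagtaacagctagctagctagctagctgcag
Plch2 downstream start: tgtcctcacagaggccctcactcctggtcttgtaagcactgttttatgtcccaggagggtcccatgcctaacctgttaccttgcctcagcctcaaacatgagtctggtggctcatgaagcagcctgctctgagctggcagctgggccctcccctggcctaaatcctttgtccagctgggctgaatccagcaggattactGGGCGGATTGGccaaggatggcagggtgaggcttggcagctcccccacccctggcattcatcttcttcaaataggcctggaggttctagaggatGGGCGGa
Plcg1 start: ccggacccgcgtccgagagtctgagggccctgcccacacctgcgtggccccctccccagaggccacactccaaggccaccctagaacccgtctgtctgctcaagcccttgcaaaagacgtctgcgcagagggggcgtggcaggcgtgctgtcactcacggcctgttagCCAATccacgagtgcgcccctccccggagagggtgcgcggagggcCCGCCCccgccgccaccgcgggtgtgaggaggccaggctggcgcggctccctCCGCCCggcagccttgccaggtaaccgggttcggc

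The upstream Plch2 window held 6 CpG dinucleotides, close to the median of 7 over 32851 windows of the same length, and the downstream window held 2, with 14.1% of windows having fewer. The Plcg1 window held 27. Of the other members with 1 window, Plcb1 had 26, Plcb3 27, Plcd3 22, Plcg2 21, Plcb2 5 and Plce1 8. The members with 2 windows had 50 and 3 (Plcb4) and 22 and 11 (Plcd1). A GC box stood in the upstream Plch2 window, and 2 stood in the downstream window, the first directly followed by an inverted CCAAT box. Over the family, 11 of 13 windows had a GC box, which 35.7% of all windows had. The CCAAT box was in 3 windows (37.4% of all windows), the E-box in 1 (7.15%) and the AP-1 site in 1 (5.202%), and neither the TATA box (13.6%) nor the CRE (1.79%) was in any. These are letter matches and not measured binding sites. Both Plch2 starts lie inside the longer GENCODE gene model, 37.4 and 45.8 kb downstream of its annotated 5' end, and gene-level values do not show which start was used.

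Plch2 encodes phospholipase C eta 2, a calcium-sensitive enzyme enriched in neurons of the mouse. The gene spans 73.7 kb (chr4:154983115-155056784, GRCm38, minus strand). Its level was 0.341, 0.379 and 0.463 CPM in WT replicates 1 to 3 and 14.9, 8.61 and 9.49 CPM in Prmt5AKO replicates 1 to 3. The groups were far apart, with the lowest Prmt5AKO library 18.6 times as high as the highest WT library. The WT values rested on few reads, namely 8, 10 and 13, with exact Poisson 95% intervals of 3.45 to 15.8, 4.795 to 18.4 and 6.92 to 22.2 reads, against 321, 193 and 201 reads in Prmt5AKO. These intervals cover counting error only. Pooled over libraries, 31 reads in WT and 715 in Prmt5AKO gave a CPM ratio of 27.6 (exact 95% counting interval 19.3 to 40.9). In WT eWAT, 1.96% of all genes with values had a lower mean than Plch2, and in Prmt5AKO eWAT 45.3% did. The spread within each genotype was small beside that gap, 1.35-fold from lowest to highest in WT and 1.73-fold in Prmt5AKO.

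On the log2(CPM + 0.5) scale Plch2 was 3.65 higher in Prmt5AKO (SE 0.34, 95% interval 2.86 to 4.44, n = 3 per group, adjusted p = 0.0686 by limma over the 16109 genes kept, those with at least 0.5 CPM in 3 libraries or more). This scale understates the fold, since the WT values lie below the added 0.5 CPM. Plch2 reached 0.5 CPM only in Prmt5AKO, so it met the filter only through those libraries. The adjusted p was the value that selected the gene, and it missed the threshold of 0.05. No gene passed it, so the share called over the whole fit was 0%, although 1404 genes had an unadjusted p under 0.05. Among the libraries on each side of the first principal component, where 1 genotype has a single library and no test is possible, the differences were 4.10 (Prmt5AKO replicate 1 against WT replicates 1 and 3) and 3.44 (Prmt5AKO replicates 2 and 3 against WT replicate 2). Plch2 did pass when Prmt5AKO replicate 1 was left out (adjusted p = 0.0142 by limma), a fit that called 0.521% of genes. It also passed in DESeq2 (1.87% of genes called), in edgeR's likelihood ratio test (1.01%), in limma blocked on replicate number (0.801%) and in edgeR's quasi-likelihood test with that block (0.329%). Over the 22 alternatives its adjusted p ran from 1.46e-19 to 0.539. The alternative with array weights also passed it, along with 5 other members, but called 57.9% of all genes.

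**Figure D1:**
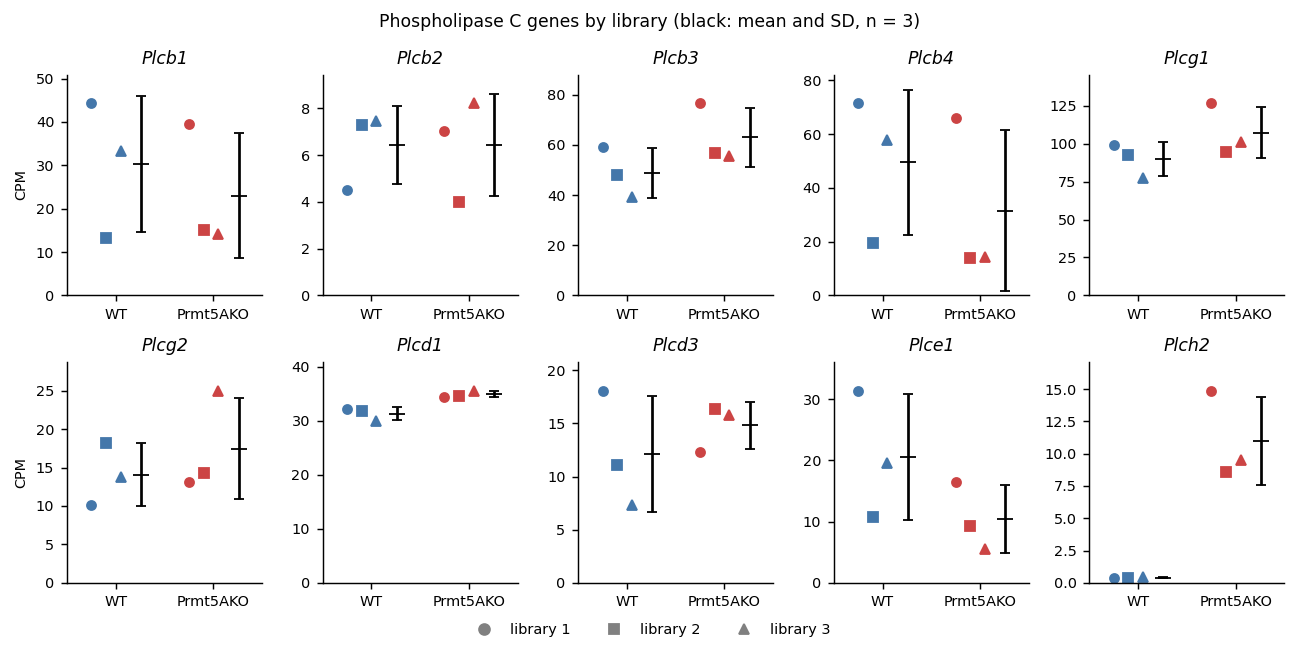
Level of each phospholipase C gene in CPM (vertical axes start at 0) in the 3 WT and 3 Prmt5AKO libraries, with the marker shape giving the replicate number and black bars the mean and SD. Plch2 runs from 0.341 to 0.463 CPM in WT and from 8.61 to 14.9 CPM in Prmt5AKO, while Plcb1, Plcb4 and Plce1 are highest in WT replicate 1 and low in WT replicate 2 and Prmt5AKO replicates 2 and 3.

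The genes around Plch2 did not show a difference of that size. Of the 7 other genes with values within 100 kb, the nearest is Pank4, a pantothenate kinase family gene that faces Plch2 end to end with a gap of 2.18 kb. Pank4 measured 21.2, 18.0 and 19.1 CPM in WT and 29.97, 22.7 and 28.4 CPM in Prmt5AKO. These groups did not overlap, but the difference was 0.46 on the log2 scale (SE 0.26, adjusted p = 0.601 by limma). Pex10, a peroxisome assembly gene 10.2 kb beyond the 5' end of Plch2, was at 11.3, 15.6 and 11.1 CPM in WT and 12.3, 20.3 and 26.2 CPM in Prmt5AKO, which overlapped. Fam213b, 84.0 kb away, had the largest estimate of the neighbours at 0.88 (SE 0.41, adjusted p = 0.581 by limma) with overlapping groups. The estimates of Rer1, Tnfrsf14, Morn1 and Ski lay between -0.06 and 0.49. An antisense gene, Gm10564, shares 189 bases of exon with Plch2 and had no values of its own. The sources do not state whether counting used strand, so reads of such a partner could not be told from reads of Plch2.

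**Figure D2:**
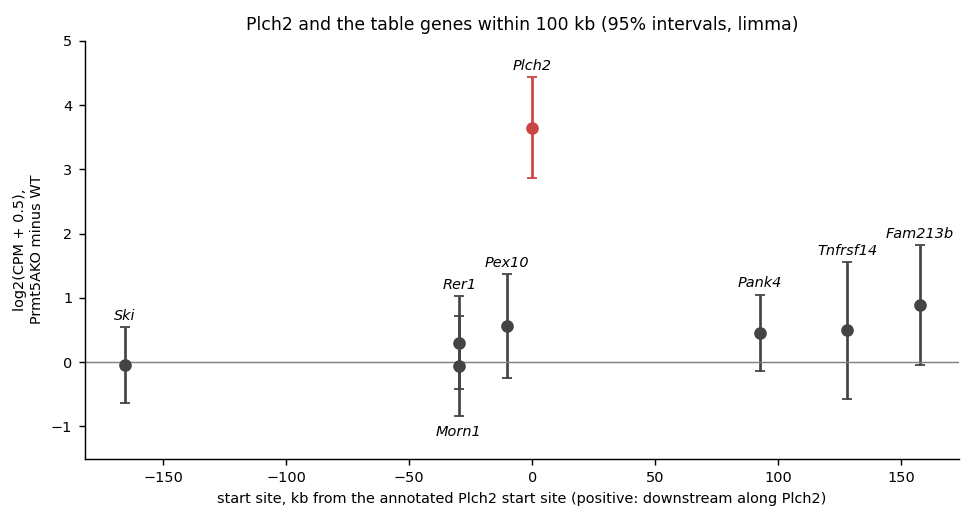
Difference between Prmt5AKO and WT in log2(CPM + 0.5), with 95% intervals from limma, for Plch2 and the 7 genes within 100 kb of it, against the distance of each start site from the annotated Plch2 start in kb. Plch2 stands at 3.65, and the neighbours lie between -0.06 and 0.88 with intervals that all reach below 0.

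The genes whose pattern over the 6 libraries was most like that of Plch2 were Arhgap39 (Pearson r = 0.997), Ntm (0.996), Svop (0.995), Xrcc6 (0.992) and Ap4m1 (0.992). Ntm, a neuronal cell adhesion gene, averaged 0.766 CPM in WT and 3.01 CPM in Prmt5AKO. Svop, a synaptic vesicle protein gene, averaged 0.293 and 5.90 CPM. Of 10 neuron and Schwann cell markers, 8 were kept in the fit, and their summed level was 45.8 to 49.8 CPM in WT and 35.8 to 77.8 CPM in Prmt5AKO. Among them S100b, which adipocytes also express, was at 4.69, 3.82 and 5.55 CPM in WT and 29.3, 42.9 and 15.6 CPM in Prmt5AKO. The other 7 had overlapping groups and estimates below 0, with Sox10 at 1.35 to 2.90 CPM in WT and 1.115 to 1.89 CPM in Prmt5AKO, and Snap25 below 1 CPM in every library. These correlations describe 6 shared libraries, and a gene that separates the genotypes as Plch2 does will be near the top of such an order.

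Among the beta enzymes, Plcb3, which acts below Gq receptors in many tissues, was at 59.1, 48.0 and 39.1 CPM in WT and 76.5, 56.9 and 55.4 CPM in Prmt5AKO. The groups overlapped, and the difference was 0.37 (SE 0.27, adjusted p = 0.621 by limma). It shares 22 bases of exon with Ppp1r14b on the other strand. Plcb2, an enzyme of blood cells that G protein beta-gamma subunits activate, was low, at 4.52, 7.31 and 7.47 CPM in WT and 7.05, 4.01 and 8.22 CPM in Prmt5AKO. Its difference of -0.02 (SE 0.38) changed sign under 4 of 22 alternatives.

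Plcb1 and Plcb4, the beta enzymes best known from brain, varied widely between libraries of the same genotype. Plcb1 was at 44.3, 13.3 and 33.4 CPM in WT and 39.6, 15.2 and 14.1 CPM in Prmt5AKO. Plcb4 was at 71.5, 19.5 and 57.8 CPM in WT and 66.1, 14.1 and 14.2 CPM in Prmt5AKO. In both genes WT replicates 1 and 3 and Prmt5AKO replicate 1 were high, and the other 3 libraries were low. Across the 6 libraries the genes had r = 0.975 with each other. The genotype differences were -0.40 (SE 0.54, adjusted p = 0.742) for Plcb1 and -0.85 (SE 0.69, adjusted p = 0.632) for Plcb4 in limma. Without each library in turn the differences ran from -0.90 to -0.05 for Plcb1 and from -1.58 to -0.48 for Plcb4. Between libraries on the same side of the first component, again without a test, the differences were 0.04 and 0.13 for Plcb1 and 0.04 and -0.45 for Plcb4.

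The gamma enzymes did not differ beyond their spread. Plcg1, which growth factor receptors phosphorylate, had the highest level of the family, at 99.1, 92.4 and 77.5 CPM in WT and 126, 94.6 and 101 CPM in Prmt5AKO. The lowest Prmt5AKO library lay below the highest WT library, and the difference was 0.25 (SE 0.25, adjusted p = 0.668 by limma). Plcg1 shares 379 bases of exon with Zhx3 on the other strand. Plcg2, the enzyme below B cell and Fc receptors, was at 10.1, 18.2 and 13.8 CPM in WT and 13.2, 14.3 and 25.03 CPM in Prmt5AKO. Its highest value was in Prmt5AKO replicate 3, and its difference of 0.29 (SE 0.36, adjusted p = 0.726 by limma) fell to 0.005 without that library. In Prmt5AKO replicate 3 the summed levels of 12 macrophage markers (3301 CPM), 10 B cell markers (63.1 CPM) and 12 T and NK cell markers (146 CPM) were also the highest of the 6 libraries. Over all libraries these sums ran from 1437 to 2632 CPM in WT and from 2028 CPM in Prmt5AKO for macrophages, from 23.2 to 44.4 CPM and from 11.4 CPM for B cells, and from 21.7 to 39.5 CPM and from 54.0 CPM for T and NK cells. Not every listed marker followed its sum in Prmt5AKO replicate 3. Lyz2, C1qa and C1qb made up most of the macrophage sum there, at 1536, 586 and 519 CPM. Cd163 (42.1 CPM), Mrc1 (44.4 CPM) and Itgam (8.17 CPM) were at their lowest of the 6 libraries there. The B cell gene Ms4a1 was at 1.18 CPM there and at 2.06 to 2.82 CPM in WT. No marker of these 3 lists was at 0 in any library except the B cell genes Cr2 and Fcmr. The part of these cells in the Plcg2 values was not tested.

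The delta enzymes are small and strongly calcium dependent. Plcd1 was the steadiest member, at 32.2, 31.8 and 29.9 CPM in WT and 34.5, 34.6 and 35.6 CPM in Prmt5AKO. The groups did not overlap, yet the difference was only 0.15 (SE 0.23, 95% interval -0.38 to 0.68, adjusted p = 0.759 by limma). Plcd3 was at 18.1, 11.1 and 7.33 CPM in WT and 12.3, 16.4 and 15.8 CPM in Prmt5AKO, so all Prmt5AKO values fell within the WT range, with a difference of 0.36 (SE 0.37, adjusted p = 0.682 by limma). Plce1, the epsilon enzyme, which is also an exchange factor for Rap, was at 31.4, 10.8 and 19.6 CPM in WT and 16.5, 9.32 and 5.52 CPM in Prmt5AKO. It had the largest estimate among the other 9 members at -0.95 (SE 0.50, 95% interval -2.11 to 0.21, adjusted p = 0.599 by limma), with overlapping groups. On the 2 sides of the first component its difference was -0.57 and -0.55. The median difference of 365 protein-coding genes spanning over 300 kb, as Plce1 does, was -0.33.

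**Figure D3:**
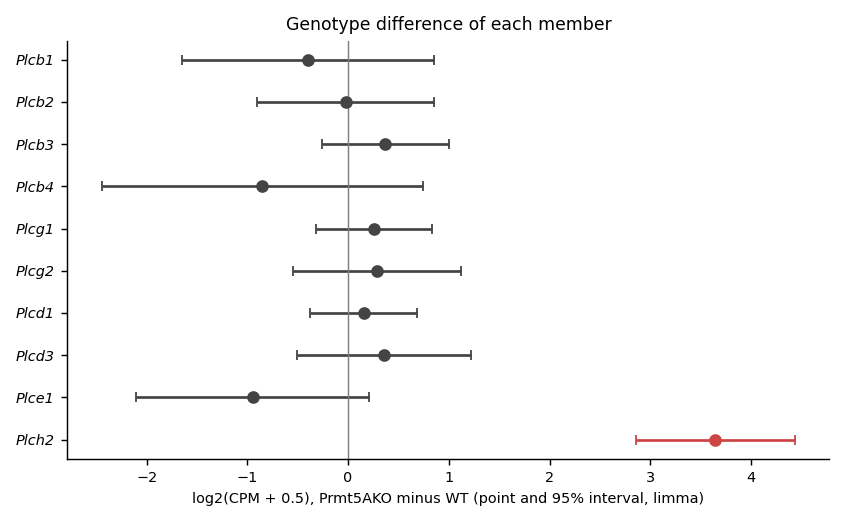
Difference of each phospholipase C gene between Prmt5AKO and WT in log2(CPM + 0.5), with the 95% interval from limma (3 libraries per group). The interval of Plch2, 2.86 to 4.44, lies above 0, and those of the other 9 genes include 0.

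Counted over the family, Plch2 and Plcd1 were higher in all 3 Prmt5AKO libraries than in all 3 WT libraries, which held for 8.16% of the 16109 genes, and no member was lower in this way (6.28% of genes). Plch2 had an unadjusted p under 0.05 as a higher gene (4.79% of genes), and no member had as a lower gene (3.93%). Since Plch2 selected the family by this contrast, its part in both counts was set in advance. Among the remaining members only Plcd1 was higher in this way, and none had an unadjusted p under 0.05 (limma).

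Per kilobase of exon, the measure on which genes can be compared, Plcg1 led in both genotypes with 11.4 ± 1.41 CPM per kb in WT and 13.7 ± 2.15 in Prmt5AKO (mean ± SD, n = 3). Plcd1 followed with 10.1 ± 0.411 and 11.3 ± 0.189 CPM per kb, and Plcb3 came next with 6.999 ± 1.44 and 9.04 ± 1.70. In WT the ranges of Plcg1 and Plcd1 overlapped, although Plcg1 was higher in all 3 libraries, and Plcd1 and Plcb3 were apart. From Plcb3 down through Plcb4 (5.53 ± 3.01), Plcd3 (3.58 ± 1.61), Plcg2 (3.27 ± 0.952), Plcb1 (2.73 ± 1.42), Plce1 (1.29 ± 0.647) and Plcb2 (0.975 ± 0.251 CPM per kb), each gene overlapped the next. Plch2 was last in WT and well apart, with 0.0486 ± 0.00765 CPM per kb.

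In Prmt5AKO the 3 highest genes kept their places and were apart from each other and from the next, Plcd3, at 4.37 ± 0.656 CPM per kb. Plcg2 (4.07 ± 1.52), Plcb4 (3.51 ± 3.34), Plcb1 (2.06 ± 1.30), Plch2 (1.36 ± 0.419), Plcb2 (0.974 ± 0.329) and Plce1 (0.653 ± 0.349 CPM per kb) followed, each overlapping its neighbour. Plch2 thus stood eighth of 10, above Plcb2 in 2 of 3 libraries and below Plcb1 in 3 of 3. Of the summed CPM per kb of the family, Plch2 made up 0.0782% to 0.135% in WT and 2.37% to 3.07% in Prmt5AKO, while the family total was 41.6 to 53.8 CPM per kb in WT and 44.8 to 59.8 in Prmt5AKO.

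The 3 members with the longest genes shared a pattern between libraries of 1 genotype, high in the first replicate and lower in the second. Plcb1 spans 689 kb, Plcb4 356 kb and Plce1 304 kb, while no other member exceeds 137 kb. In log2 terms, WT replicate 1 over WT replicate 2 was 1.70 for Plcb1, 1.85 for Plcb4 and 1.499 for Plce1, and Prmt5AKO replicate 1 over Prmt5AKO replicate 2 was 1.36, 2.19 and 0.79. The medians of 365 protein-coding genes spanning over 300 kb were 0.86 and 0.51 in these comparisons, and those of 3345 genes under 10 kb were -0.50 and -0.50. Plcg2 went the other way in spite of its span of 137 kb, with -0.83 and -0.11, against medians of 0.64 and 0.54 for 1551 genes of 100 to 300 kb. Plcd1, at 22.0 kb, gave 0.02 and -0.01. Between genotypes the median difference was 0.21 under 10 kb, -0.30 at 100 to 300 kb and -0.33 over 300 kb. The members' own differences were -0.40 (Plcb1), -0.85 (Plcb4), -0.95 (Plce1) and 0.29 (Plcg2). Shorter genes also varied within a genotype, but between other libraries. For Plcd3 (31.4 kb) WT replicate 1 over WT replicate 3 was 1.25, and for Plcb2 (20.9 kb) Prmt5AKO replicate 2 over Prmt5AKO replicate 3 was -0.95. Beside Plcb1, Plcb4 and Plce1, a list drawn up for nuclear-retained RNAs also differed between libraries. Whether every listed RNA stays in the nucleus was not tested. Its 8 genes with values summed to 2242, 819 and 1781 CPM in WT replicates 1 to 3 and to 2181, 220 and 215 CPM in Prmt5AKO replicates 1 to 3. Malat1 and Neat1 made up most of these sums, with 1139 and 881 CPM in WT replicate 1. Other listed genes ran differently, with Mir99ahg at 10.6, 23.0 and 16.2 CPM in WT and 18.3, 28.7 and 21.9 CPM in Prmt5AKO, and Gas5 at 61.0, 87.7 and 106 CPM in WT and 63.5, 40.2 and 34.4 CPM in Prmt5AKO. Of the 10 listed, 2 had no values, and none of the 8 was at 0. By genotype, 3 of the 8 were lower in Prmt5AKO at an unadjusted p under 0.05 (limma), beside 3.93% of all genes, and all 8 had overlapping groups. Whether nuclear RNA content or gene length has a part in the levels of these members was not tested.

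**Figure D4:**
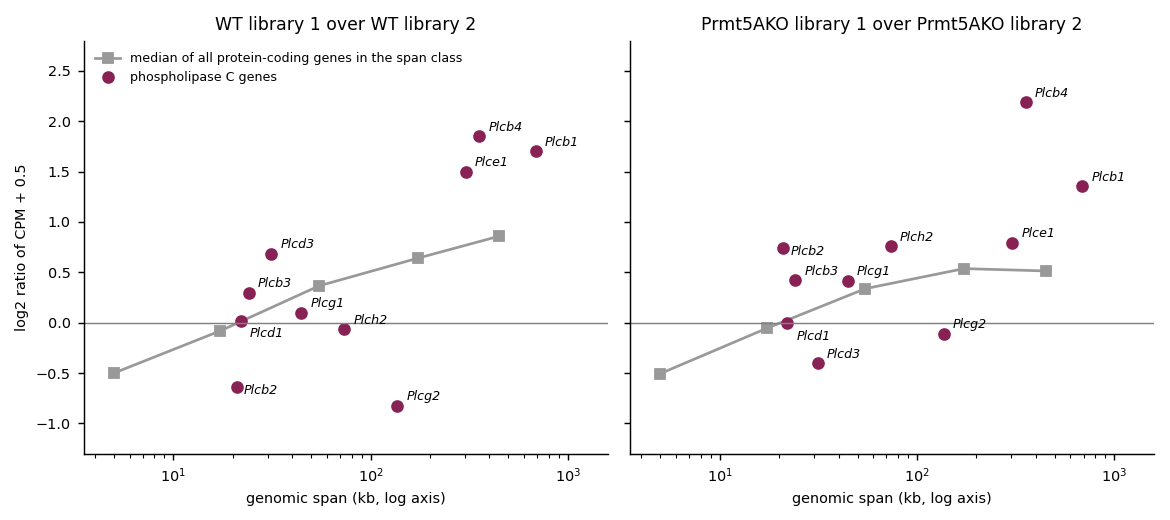
Log2 ratio of CPM + 0.5 between replicates 1 and 2 of each genotype against genomic span in kb (log axis). Grey squares are medians of all protein-coding genes in 5 span classes and rise from -0.50 under 10 kb to 0.86 (WT) and 0.51 (Prmt5AKO) over 300 kb. Purple points are the phospholipase C genes, with Plcb1, Plcb4 and Plce1 above these medians and Plcg2 below.

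The same grouping showed in the correlations among members over the 6 libraries, which share depth and tissue composition and are given without a test. Plce1 went with Plcb4 (r = 0.906) and Plcb1 (0.884), and Plcg2 ran against it (-0.915). Plcb3 and Plcg1 went together (0.970). The genes most like each member were Ranbp2, Cstf2 and Tmem47 for Plcb1 (r at least 0.996), Dnase1l2, Zfp647 and Brsk1 for Plcb2 (at least 0.940), Dop1b, Fbxl18 and Dnmt1 for Plcb3 (at least 0.993), Mindy2, Cntln and Zfp971 for Plcb4 (at least 0.999), Mybbp1a, Wdr91 and Pitpnm2 for Plcd1 (at least 0.994), Pi4ka, Numa1 and Lrrc41 for Plcd3 (at least 0.978), Fermt2, Gpatch2l and Nectin3 for Plce1 (at least 0.996), Chd5, Madd and Cnot3 for Plcg1 (at least 0.994) and Mapk11, Wrap73 and Sh3bp1 for Plcg2 (at least 0.987). Of these, Pi4ka makes the first phosphorylated precursor of PIP2 at the plasma membrane, and Pitpnm2 carries phosphatidylinositol between membranes.

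Genes that act before and after the enzymes were counted in 12 lists with 242 genes, of which 222 were kept in the fit. None passed limma's threshold. At an unadjusted p under 0.05, 8 genes (3.60%) were higher and 12 (5.41%) were lower, beside 4.79% and 3.93% of all genes. Their median log2 difference was -0.06, against -0.03 over all genes.

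Of the remaining phospholipase C and PLC-like genes, 5 of 8 were kept and none had p under 0.05. First by mean CPM was Plcl2, a PLC-like protein without catalytic activity, at 14.4, 24.7 and 19.7 CPM in WT and 22.6, 38.4 and 40.4 CPM in Prmt5AKO, with overlapping groups. The sister of Plch2, Plch1, was not analysed here. Among 20 Gq/11 subunits and regulators none had p under 0.05, and the beta subunit gene Gnb2, which had the highest mean CPM over all 6 libraries though not in WT alone, averaged 306 ± 112 CPM in WT and 478 ± 194 CPM in Prmt5AKO. None of 14 Ras and Rap family genes upstream of the epsilon enzyme did either, and Rhoa, first by mean CPM over all libraries, averaged 338 ± 25.01 and 403 ± 92.7 CPM.

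Of 28 kept receptors that couple to Gq, 1 was higher and 6 were lower at an unadjusted p under 0.05 (limma). Over all genes these shares were 4.79% and 3.93%. Adra1d, an alpha-1 adrenergic receptor of vascular smooth muscle, was at 6.49, 4.24 and 3.13 CPM in WT and 13.5, 11.1 and 14.6 CPM in Prmt5AKO, a difference of 1.45 (SE 0.35, adjusted p = 0.336 by limma). The summed smooth muscle and pericyte markers were 1065 to 1840 CPM in WT and 1772 to 3050 CPM in Prmt5AKO. The angiotensin receptor Agtr1a was lower, at 24.9, 16.5 and 20.5 CPM in WT and 11.7, 9.50 and 6.94 CPM in Prmt5AKO (-1.11, SE 0.32, adjusted p = 0.388 by limma). Lpar1, a receptor for lysophosphatidic acid, was at 24.0, 14.2 and 22.7 CPM in WT and 12.6, 7.45 and 6.14 CPM in Prmt5AKO (-1.20, SE 0.37, adjusted p = 0.426 by limma). Adra1d, Agtr1a and Lpar1 had groups without overlap. So did Adra1b, another alpha-1 adrenergic receptor, but in the lower direction. It was at 3.71, 4.24 and 3.02 CPM in WT and 1.39, 2.05 and 2.27 CPM in Prmt5AKO. Of the 28 receptors, 2 were higher and 6 lower without overlap, beside 8.16% and 6.28% of all genes. The summed fibroblast and progenitor markers were 4404 to 6693 CPM in WT and 3126 to 3866 CPM in Prmt5AKO, and none of the 10 was at 0. The part of these cell types in the receptor values was not tested.

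Tyrosine kinases and adaptors upstream of the gamma enzymes split evenly around 0. At an unadjusted p under 0.05 (limma), 4 of 28 were higher and 2 lower, beside 4.79% and 3.93% of all genes. Lck, a kinase of T cells, was at 2.22, 3.97 and 3.66 CPM in WT and 7.14, 6.38 and 26.0 CPM in Prmt5AKO, and the T cell adaptor Lat at 1.32, 4.13 and 2.17 CPM in WT and 6.40, 4.77 and 15.8 CPM in Prmt5AKO. The T and NK cell sums given above, a list that includes Lck, were likewise lowest in WT replicate 1 and highest in Prmt5AKO replicate 3. Kdr, the VEGF receptor of endothelium, was at 173, 113 and 98.2 CPM in WT and 89.3, 49.6 and 51.4 CPM in Prmt5AKO, without overlap, while summed endothelial markers, Kdr among them, overlapped at 843 to 1257 and 973 to 1170 CPM. Pdgfra, the growth factor receptor of fat progenitors, was at 144, 46.2 and 90.6 CPM in WT and 61.1, 28.9 and 25.6 CPM in Prmt5AKO. It overlapped between groups and is itself on the fibroblast list.

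On the lipid side, phosphoinositide supply had 1 higher and 1 lower gene of 18 at an unadjusted p under 0.05. Pitpnm2 was at 65.2, 62.0 and 42.0 CPM in WT and 95.8, 112 and 117 CPM in Prmt5AKO (0.96, SE 0.27, adjusted p = 0.382 by limma), without overlap. Pi4k2b, a kinase that makes a PIP2 precursor, was at 16.9, 8.48 and 17.9 CPM in WT and 10.7, 3.39 and 2.17 CPM in Prmt5AKO, with overlap. None of 20 phosphoinositide phosphatases had p under 0.05, and Inppl1, with the highest mean CPM over all libraries though not in WT alone, averaged 86.1 ± 15.1 and 116 ± 11.01 CPM.

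Inositol phosphate metabolism held the widest differences of the lists. Itpk1, an inositol phosphate kinase on the way from IP3 to the higher inositol phosphates, was at 29.9, 46.0 and 42.6 CPM in WT and 63.6, 235 and 179 CPM in Prmt5AKO. The groups were apart, and the difference was 1.82 (SE 0.48, adjusted p = 0.368 by limma). Slc5a3, the sodium-coupled myo-inositol transporter, was at 127, 41.4 and 137 CPM in WT and 63.1, 16.1 and 14.7 CPM in Prmt5AKO, a difference of -1.84 (SE 0.65, adjusted p = 0.486 by limma) with overlapping groups. Like Plcb4 it was lowest in WT replicate 2 among WT libraries.

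Downstream, none of 21 genes for IP3 receptors and the calcium store had p under 0.05, and the calcium pump Atp2a2, first by mean CPM, averaged 146 ± 46.3 CPM in WT and 105 ± 37.4 CPM in Prmt5AKO. Of 19 calmodulin, calcineurin and NFAT genes, the calcineurin inhibitor Rcan2 had p under 0.05, at 20.4, 10.5 and 14.4 CPM in WT and 7.70, 5.53 and 5.29 CPM in Prmt5AKO (-1.19, SE 0.35, adjusted p = 0.404 by limma), without overlap. Of 12 diacylglycerol kinases and lipases, Abhd6, a monoacylglycerol lipase, was at 22.4, 34.9 and 29.8 CPM in WT and 37.9, 59.7 and 48.0 CPM in Prmt5AKO, also without overlap (0.73, SE 0.29, adjusted p = 0.540 by limma). Of 20 protein kinase C and other diacylglycerol targets, Rasgrp3, a diacylglycerol-activated exchange factor for Ras and Rap, was at 30.3, 14.6 and 21.8 CPM in WT and 18.0, 7.36 and 6.66 CPM in Prmt5AKO, with overlap.

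**Figure D5:**
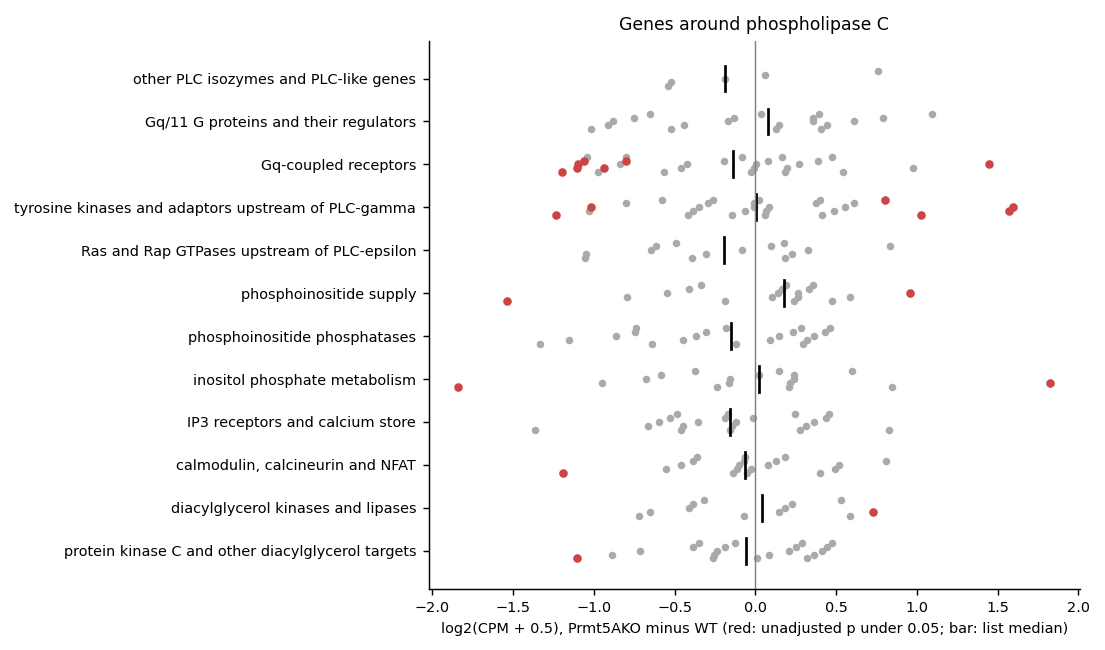
Difference between Prmt5AKO and WT in log2(CPM + 0.5) for the kept genes of the 12 lists around phospholipase C, with black bars for list medians and red points for an unadjusted p under 0.05 (limma). Of 222 genes, 8 red points lie above 0 and 12 below, with Itpk1 at 1.82 and Slc5a3 at -1.84 as the extremes.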

How the data were processed

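Total RNA of eWAT was enriched for polyA RNA and sequenced as paired-end reads (3 WT and 3 Prmt5AKO libraries). By the study's methods and the submitters' processing notes, reads were checked with FastQC 0.11.9 and trimmed with Trim Galore 0.6.0. They were aligned to GRCm38 with STAR 2.7.10a (GENCODE release M25). Uniquely mapped pairs were kept with ngsutilsj 0.5.9 at a mapping quality of at least 10. Genes were counted with featureCounts of Subread 2.0.1 and tested with edgeR 4.0.16. A correction for batches is mentioned in the study's results, without saying what the batches were.

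The authors deposited a signal per gene and library that is CPM on effective library sizes, so column sums differ and a plain CPM test was assumed in the design. In each library 100% of values were whole multiples of 1 read within 0.05 of a read, which returned the reads. The table's log2 fold changes, likelihood ratios and p-values are the authors' own comparison and were not used, nor were the enrichment files.

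Genes reaching 0.5 CPM in 3 or more libraries, 16109 of 16619 and including all 10 members, were fitted with limma 3.58.1 (eBayes with trend, genotype only) on log2(CPM + 0.5). Plch2 met this filter only through its Prmt5AKO libraries. P-values were adjusted by Benjamini-Hochberg over all fitted genes, and a call needed an adjusted p under 0.05 and a log2 difference over 0.5. Recovered reads were used in edgeR 4.0.16 and DESeq2 1.42.0 as alternatives. The fit was tested on simulated reads of independent libraries. That simulation had no shared axis such as the first principal component, so it does not show how the fit performs with such an axis. Members and lists were chosen with earlier results of these data known. The named genes are the members, the genes within 100 kb of Plch2, the 5 genes most like Plch2 and the 3 most like each other member (Pearson, mean of at least 1 CPM), and from each list up to 2 per direction with the largest difference at an unadjusted p under 0.05 or else the highest gene. Marker genes were named where their list moved with a member. S100b, Sox10, Snap25, Malat1, Neat1, Mir99ahg, Gas5, Cr2, Fcmr, Cfd, Pparg, Adipoq and Abhd11os were named after their values were seen. So were Lyz2, C1qa, C1qb, Cd163, Mrc1, Itgam, Ms4a1 and Adra1b. Gene models are GENCODE release M21 on GRCm38, whose exon lengths may differ slightly from those used in counting, and promoter sequences are from RefSeq (GRCm38.p6, all 10 members matched). Software was R 4.3.3 and Python 3.11.15 (with pandas 2.3.3, numpy 2.4.6 and scipy 1.17.1), and matplotlib 3.10.9 for plots.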

Additional observations from a re-analysis of the deposited data

How the results depend on the processing

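The number of members passing the threshold was 0 with limma and 0 under 16 of the 22 alternatives, which included other pseudocounts, filters and scalings, adjusted p alone, robust eBayes, limma-voom and edgeR's quasi-likelihood test. It was 1 (Plch2) with edgeR's likelihood ratio test, with DESeq2, with the replicate block in limma and with the replicate block in edgeR's quasi-likelihood test. Leaving out each library gave 0 to 1 members and 0 to 1 genes of the lists, with Plch2 and Itpk1 passing without Prmt5AKO replicate 1. Array weights passed 6 members and 134 genes of the lists, and that fit did not converge. Of the genes of the lists, Itpk1 was the 1 that passed with the replicate block in limma and with edgeR's likelihood ratio test, 4 passed with DESeq2 (Itpk1, Adra1d, Ednrb and Rcan2), and none passed with the replicate block in edgeR's quasi-likelihood test.

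The labels do not say whether the replicate numbers pair the samples. Same-numbered libraries had correlations of 0.678, 0.571 and -0.107 between their deviations from the group means. WT replicate 2 had 0.528 with Prmt5AKO replicate 3, so these values do not settle the pairing. A call under the replicate block is not evidence of pairing. The log2 difference of Plch2 ran from 2.41 (pseudocount of 2 CPM) to 4.798 (DESeq2) and never changed sign, and without each library in turn it was 3.42 to 3.796. Plcb2 changed sign under 4 alternatives, and its estimates ran from -0.75 to 0.26. The estimates of the other 8 members kept their sign under all 22. With 3 libraries per group and 8 to 13 Plch2 reads per WT library, the WT level is known no better than its counting interval. That interval leaves out the spread between libraries or mice. With standard errors of 0.23 to 0.69 for the other members, small differences could not be resolved.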
